A study of Mus musculus with 41 samples.

Results

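This account follows 10 genes of mouse dual-specificity MAP kinase phosphatases, Dusp1, Dusp3, Dusp4, Dusp5, Dusp6, Dusp7, Dusp8, Dusp10, Dusp14 and Dusp16, among the 24371 genes listed in each of 4 count tables of fetal mouse lung. They were chosen by symbol, and each symbol had 1 row in every table. The study asked how glucocorticoids act on the lung before birth, and dexamethasone is a synthetic glucocorticoid given by injection to the pregnant dam. The first set held 4 dexamethasone and 2 saline pools of sorted mesenchyme. Its dams, time mated within Twist2Cre;Rosa26mT/mG and Rosa26mT/mG stock, were injected at E18.5 with dexamethasone at 1 mg/kg or with saline, and the pups were taken 2 hours later. All 6 pools carried the Twist2Cre allele and the reporter, and lungs were pooled by genotype. Cells positive for GFP and negative for tdTomato were sorted, so the sort selected for cells in which Twist2Cre had acted. The second set held 1 CD106+ library from lungs of 1 mg/kg dexamethasone at E18.5, 2 untreated CD106+ libraries and 2 CD106- libraries of the same age, with no genotype, time of treatment or count of animals in the labels. CD106 is the surface protein encoded by Vcam1. The third set held 26 single lung cells of wild type C57Bl6/J fetuses, 15 from dams given 2 mg/kg dexamethasone at E17.5 and 11 from dams given saline, all taken 24 hours after injection. The labels name no litter or dam for a library, so a p-value here reflects only how far libraries of a group lie apart, and part of that may be technical, and each group of cells counts as 1 sample.

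Mitogen-activated protein (MAP) kinases are switched on by phosphates on a threonine and a tyrosine, placed there by a chain of kinases that often begins at Ras. Dual-specificity phosphatases remove both phosphates and so switch the kinases off. Many of their genes are themselves switched on by the same signals, which makes them parts of negative feedback. Dusp1, Dusp4 and Dusp5 encode nuclear enzymes, Dusp6 and Dusp7 encode cytoplasmic enzymes that prefer the MAP kinase ERK, and Dusp8, Dusp10 and Dusp16 encode enzymes that prefer the stress kinases JNK and p38. Dusp3 and Dusp14 encode small atypical enzymes that lack the MAP kinase-binding domain of the others. Dusp1 is a known glucocorticoid target in several cell types and is named in textbooks as one route by which these hormones restrain p38 and JNK.

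The promoters of 9 genes were matched in RefSeq's GRCm38.p6 table, as the 250 bases before the start that the table gives for each gene, and Dusp4 is named only. For 5 of the 9 (Dusp3, Dusp7, Dusp8, Dusp14 and Dusp16) this window lay partly or wholly inside the span annotated for the gene, so other starts lie further upstream and were not searched. Those of Dusp1, Dusp16, Dusp10, Dusp8 and Dusp14 are shown, 5′ to 3′ on the gene's strand, because these genes separated treated from saline pools of mesenchyme in 1 direction or the other. Capitals mark TGACG on either strand, the core of the element bound by cAMP-responsive factors, and its full palindrome TGACGTCA.
Dusp1 (chr17:26508473-26508722, minus strand): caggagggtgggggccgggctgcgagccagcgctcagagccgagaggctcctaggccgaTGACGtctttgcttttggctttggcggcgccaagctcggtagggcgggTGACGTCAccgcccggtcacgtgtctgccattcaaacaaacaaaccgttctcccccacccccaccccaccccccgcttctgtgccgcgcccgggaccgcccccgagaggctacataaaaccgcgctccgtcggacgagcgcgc
Dusp16 (chr6:134792629-134792878, minus strand): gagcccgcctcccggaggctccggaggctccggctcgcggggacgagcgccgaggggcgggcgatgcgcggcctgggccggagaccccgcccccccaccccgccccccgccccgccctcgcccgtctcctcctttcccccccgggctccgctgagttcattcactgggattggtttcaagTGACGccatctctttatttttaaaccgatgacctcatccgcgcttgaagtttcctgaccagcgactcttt
Dusp10 (chr1:184034131-184034380, plus strand): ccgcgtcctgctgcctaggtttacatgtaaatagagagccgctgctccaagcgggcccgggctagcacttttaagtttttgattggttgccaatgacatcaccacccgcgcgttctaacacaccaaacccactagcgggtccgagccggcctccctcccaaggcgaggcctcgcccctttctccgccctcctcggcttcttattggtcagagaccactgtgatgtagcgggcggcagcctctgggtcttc
Dusp8 (chr7:142095285-142095534, minus strand): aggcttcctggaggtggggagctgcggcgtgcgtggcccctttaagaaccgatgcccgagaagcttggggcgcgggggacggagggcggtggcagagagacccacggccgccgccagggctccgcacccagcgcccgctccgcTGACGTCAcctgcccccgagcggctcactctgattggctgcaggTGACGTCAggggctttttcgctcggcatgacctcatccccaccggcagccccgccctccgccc
Dusp14 (chr11:84068358-84068607, minus strand): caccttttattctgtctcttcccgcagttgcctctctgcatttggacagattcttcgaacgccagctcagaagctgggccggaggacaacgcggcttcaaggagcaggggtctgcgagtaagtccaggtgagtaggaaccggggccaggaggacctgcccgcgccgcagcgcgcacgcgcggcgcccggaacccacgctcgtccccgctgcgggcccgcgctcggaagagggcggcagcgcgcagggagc
The palindrome stood once before Dusp1, 143 to 136 bases upstream of the start, and at 2 places before Dusp8, and it was found in 2 of 9 promoters of these genes against 1.62% of 27025 mouse promoters. The core TGACG, which also lies inside every palindrome, was found in 4 of 9, those of Dusp1, Dusp5, Dusp8 and Dusp16, against 17.9% of all promoters. The half-site AGAACA of the glucocorticoid receptor was found in 0 of 9 against 16.2% of all promoters, and its full form, AGAACA and TGTTCT with any 3 bases between them, in 0 of 9 against 0.0037%. The CArG box, an element of serum response, was found at 2 places before Dusp5 and in no other of the 9, against 1.40% of all promoters. All motifs were searched on both strands. The windows of these genes were rich in G and C, with 56.4 to 77.2% (median 68.4%) against a median of 52% over all promoters, and a match in such a window is a description of letters only.

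The mesenchyme pools held 1670896 to 4224245 counts, the CD106 libraries 3790544 to 7133941 and the cells 215623 to 1787997. Levels are given as CPM, the count scaled to a common library total, so 1 gene can be compared between libraries but levels of different genes cannot be ranked, since they also follow transcript length. Fkbp5, a glucocorticoid-induced chaperone used as a check of treatment, stood at 176 to 260 CPM in dexamethasone pools and at 28.7 and 40.7 CPM in saline pools. It stood at 49.6 CPM in the dexamethasone CD106+ library and at 12.6 and 35.5 CPM in untreated CD106+ libraries. The pools expressed the 7 mesenchyme markers strongly, at 16807 to 19575 CPM summed in dexamethasone pools and 14771 to 20037 CPM in saline pools. Erythroid markers summed to 146 to 329 CPM in dexamethasone pools and 140 and 826 CPM in saline pools. Epithelial markers summed to 2.13 to 168 CPM in dexamethasone pools and 26.7 and 175 CPM in saline pools. Vcam1 stood at 551 and 687 CPM in the CD106+ fraction, against 1.35 and 3.00 CPM in the CD106- fraction, as the sort would have it. The mesenchyme markers summed to 5780 and 10851 CPM in the CD106+ fraction, against 764 and 1100 CPM in the CD106- fraction. Epithelial markers summed to 2079 and 3775 CPM in the CD106+ fraction, against 4428 and 5031 CPM in the CD106- fraction, and their part in differences between the fractions was not tested.

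In sorted mesenchyme 2 hours after injection, Dusp1 was the only phosphatase gene called higher. Dusp16 also lay higher in every dexamethasone pool but did not pass the test. Dusp1 (chromosome 17, 26505591 to 26508472, GRCm38.p6) stood at 613, 535, 542 and 543 CPM in the 4 dexamethasone pools and at 295 and 319 CPM in the 2 saline pools. Every dexamethasone pool lay above both saline pools. The means were 558 ± 36.9 CPM with dexamethasone and 307 ± 16.8 CPM with saline (SD, n = 4 and 2), a log2 fold change of 0.93 (SE 0.21, adjusted p = 0.022 by edgeR's quasi-likelihood test). Of 8 genes of the set that passed the filter on low counts, this 1 was called higher and 0 were called lower at an adjusted p under 0.05. Over all 11356 genes tested, 2.69% were called, 1.95% higher and 0.740% lower. The median log2 fold change of the 8 was -0.04, beside -0.01 for all genes tested.

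**Figure D1:**
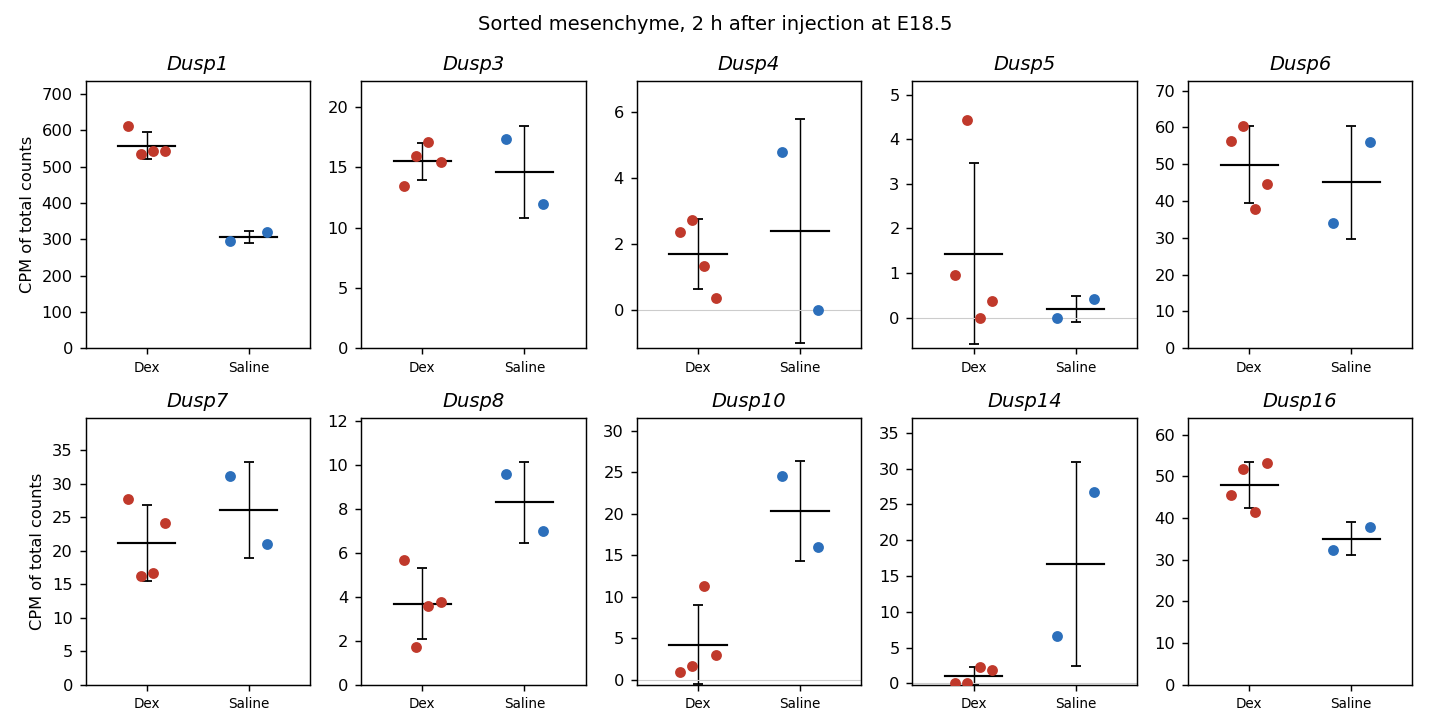
CPM of total counts (vertical axes, linear, each gene on its own scale) of the 10 phosphatase genes in 4 dexamethasone (Dex) and 2 saline pools of sorted mesenchyme. Points are pools, long lines means and whiskers SD, which fall below 0 for some genes of low counts. Dusp1 lies at 535 to 613 CPM with dexamethasone and at 295 and 319 CPM with saline, and Dusp10 and Dusp14 lie lower in every dexamethasone pool.

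The call of Dusp1 depended on the libraries in the fit, although its size did not. Without dexamethasone pool 1 the adjusted p was 0.055, without dexamethasone pool 4 it was 0.061, and without saline pool 1 or 2 it was 0.12 or 0.11, with log2 fold changes of 0.88 to 0.97 over all pools left out in turn. Sex and cell type markers also differed between the groups. Xist, the X-inactivation RNA that marks female cells, stood at 374, 11111, 12.6 and 6.59 CPM in dexamethasone pools and at 33133 and 20880 CPM in saline pools. Female cells were thus unevenly spread over dexamethasone and saline. The 7 chondrocyte markers summed to 8.29 to 326 CPM in dexamethasone pools and 528 and 1393 CPM in saline pools, led by Col2a1. The 6 smooth muscle markers summed to 1059 to 1164 CPM in dexamethasone pools and 1666 and 2017 CPM in saline pools, and the 6 cardiac muscle markers to 155 to 281 CPM in dexamethasone pools and 330 and 387 CPM in saline pools; the part of muscle cells in the Dusp1 value was not tested. In bulk samples such as these, fewer cells of a type and less RNA per cell cannot be told apart. With Xist as a covariate the log2 fold change of Dusp1 was 0.92 (adjusted p = 0.12 by edgeR). With the chondrocyte markers as a covariate it was 0.82 (adjusted p = 0.63 by edgeR). Neither Xist nor the chondrocyte sum overlapped between the groups. With so few pools, these fits could hardly separate either from treatment, so no conclusion is drawn from the lost call.

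The other nuclear enzymes were near the limit of counting in mesenchyme. Dusp4, which acts on ERK and JNK, stood at 2.37, 2.72, 1.35 and 0.377 CPM in dexamethasone pools and at 4.79 and 0 CPM in saline pools. Dusp5, an ERK-specific enzyme, stood at 0.947, 4.42, 0 and 0.377 CPM in dexamethasone pools and at 0 and 0.411 CPM in saline pools. The highest of these values rest on 13 counts or fewer, the groups overlapped for both genes, and neither passed the filter for the test.

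The ERK-selective cytoplasmic enzymes did not separate the groups. Dusp6, a feedback inhibitor induced by ERK, stood at 56.3, 60.5, 37.8 and 44.5 CPM in dexamethasone pools and at 34.1 and 55.9 CPM in saline pools. Dusp7, its close relative, stood at 27.7, 16.3, 16.7 and 24.1 CPM in dexamethasone pools and at 31.1 and 21.0 CPM in saline pools. The groups overlapped for both. The log2 fold change was 0.21 for Dusp6 (SE 0.33, adjusted p = 0.86) and -0.23 for Dusp7 (SE 0.42, adjusted p = 0.89).

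Among the enzymes that prefer JNK and p38, Dusp10 and Dusp8 were lower in all dexamethasone pools and Dusp16 was higher in all of them, and none passed the test. Dusp10 stood at 0.947, 1.70, 11.3 and 3.02 CPM in dexamethasone pools and at 24.5 and 16.0 CPM in saline pools. Its log2 fold change was -2.26 (SE 0.76, adjusted p = 0.14), and dexamethasone pool 3 lay nearest to the saline pools. Without that pool the log2 fold change was -3.38 (adjusted p = 0.015), and with the chondrocyte markers as a covariate it was 0.33 (adjusted p = 0.99). That pool also had the highest Col2a1 of the dexamethasone pools, 247 CPM, where the others had 6.15 to 40.4 CPM. The saline pools had 1090.4 and 403 CPM, without overlap, so Col2a1 and treatment cannot be told apart here. The part of chondrocytes in the Dusp10 values was not tested. Dusp8 stood at 5.68, 1.70, 3.60 and 3.77 CPM in dexamethasone pools and at 9.58 and 6.99 CPM in saline pools, a log2 fold change of -1.08 (SE 0.77, adjusted p = 0.61). Dusp16 stood at 45.5, 51.7, 41.4 and 53.2 CPM in dexamethasone pools and at 32.3 and 37.8 CPM in saline pools, a log2 fold change of 0.51 (SE 0.32, adjusted p = 0.54).

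Of the atypical enzymes, Dusp14 stood at 0, 0, 2.25 and 1.89 CPM in dexamethasone pools and at 6.58 and 26.7 CPM in saline pools. All dexamethasone pools lay below both saline pools, but the saline pools differed widely from each other. The log2 fold change was -4.01 (SE 1.05, adjusted p = 0.054). It rests on 10 counts over the 4 dexamethasone pools and depended on the pools kept. It passed the threshold without dexamethasone pool 3 (-4.70, adjusted p = 0.039) or saline pool 1 (-4.65, adjusted p = 0.042), and was -2.67 (adjusted p = 0.57) without saline pool 2. Without dexamethasone pool 1, 2 or 4 the adjusted p was 0.097, 0.084 or 0.071, and with the chondrocyte markers as a covariate the log2 fold change was -2.38 (adjusted p = 0.93). With replicate number as a block it was -8.22 (adjusted p = 0.065 by edgeR). Dusp14 did pass by DESeq2 (-4.01, adjusted p = 0.016). In edgeR it passed with no filter on low counts (-3.99, adjusted p = 0.00026) and with Xist as a covariate (-12.5, adjusted p = 0.0052). Xist did not overlap between the groups, so that last fit could hardly separate it from treatment. Its size of -12.5, beside -4.01 in the main fit, is not a measure of the change, and no conclusion is drawn from it. Dusp3 stood at 13.5, 16.0, 17.1 and 15.5 CPM in dexamethasone pools and at 17.4 and 11.9 CPM in saline pools, with overlap (log2 fold change 0.14, SE 0.46, adjusted p = 0.95). In all, 2 of the 8 tested genes lay higher and 3 lower in every dexamethasone pool, where 9.99% and 13.0% of all tested genes did so, 23.0% in all.

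Of the kinases that these enzymes act on, none was called in mesenchyme, where few genes of any kind were. Of 10 MAP kinase genes tested, of 7 MAP kinase kinase genes and of 8 genes of kinases downstream, 0 passed the test in either direction. Of 15 MAP kinase kinase kinase genes 1 was higher, Map3k6 at 102 ± 19.2 CPM with dexamethasone and 22.9 ± 5.67 CPM with saline (SD, n = 4 and 2; log2 fold change 2.22, adjusted p = 0.00073). Of 14 genes of the Ras switch 1 was higher, the Ras family member Mras at 105 ± 19.4 CPM with dexamethasone and 20.9 ± 4.17 CPM with saline (log2 fold change 2.39, adjusted p = 0.00025). Of 10 other Dusp and slingshot phosphatase genes tested 1 was higher, the cofilin phosphatase gene Ssh2 (log2 fold change 0.94, adjusted p = 0.0499).

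Genes that ERK signalling induces did not move as one in mesenchyme. Of 16 such transcription genes tested 1 was higher and 1 lower: Fosl2, a partner of Jun, stood at 320 ± 109 CPM with dexamethasone and 62.2 ± 2.53 CPM with saline, and Egr1, an immediate early gene, at 159 ± 33.2 CPM with dexamethasone and 680 ± 70.5 CPM with saline. The log2 fold changes were 2.43 (adjusted p = 0.00017) and -2.04 (adjusted p = 3.6e-05). Of 8 other feedback genes of ERK signalling, such as the Sprouty genes, 1 was higher, the EGF receptor inhibitor gene Errfi1 (log2 fold change 2.48, adjusted p = 1.5e-05). Of 7 JNK and p38 scaffold and stress genes 0 passed. Of 15 glucocorticoid target genes tested, a list that did not hold Dusp1, 8 were higher and 0 lower, where 1.95% of all tested genes were higher. Among them were Errfi1, Glul, Pdk4 and Fkbp5 with log2 fold changes of 2.48 to 2.96, and the median of the list was 1.85. The list was chosen with earlier results of these data known, so its count is a description and no independent support.

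In the dexamethasone CD106+ library most of the phosphatase genes stood above both untreated CD106+ libraries. Dusp1 stood at 901 CPM in it and at 198 and 236 CPM in the untreated libraries, a log2 ratio of 2.05 after a pseudocount of 1 CPM. Dusp3 stood at 59.9 CPM against 10.6 and 9.25 CPM, a log2 ratio of 2.48. Dusp4 stood at 22.4 CPM against 2.21 and 8.13 CPM, a log2 ratio of 1.93 that was 1.36 without untreated library 1 and 2.87 without untreated library 2. Dusp16 stood at 96.3 CPM against 43.7 and 48.2 CPM, a log2 ratio of 1.05. These 4, of 8 genes with 5 CPM or more in either group, were at a ratio of 2 or more, and 0 were at a ratio of 0.5 or less; over 11486 genes 13.0% were at least that much higher and 18.1% at least that much lower. The median log2 ratio of the 8 was 0.99, beside -0.21 for all genes.

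The rest of the set was closer to the untreated libraries. Dusp6 stood at 82.0 CPM in the dexamethasone CD106+ library and at 36.5 and 48.8 CPM in the untreated ones, with a log2 ratio of 0.93. Dusp10 stood at 21.6 CPM against 12.8 and 9.67 CPM, with a log2 ratio of 0.89, above both untreated libraries, whereas in mesenchyme it was lower in every dexamethasone pool. Dusp7 stood at 30.6 CPM against 24.5 and 22.8 CPM, a log2 ratio of 0.36. Dusp14 alone of the 8 lay below both, at 4.22 CPM against 10.6 and 6.73 CPM, a log2 ratio of -0.89. In all, 7 of the 8 lay above both untreated libraries, as did 32.1% of all genes. Dusp5 and Dusp8 stayed under 5 CPM, at 2.11 and 3.43 CPM in the dexamethasone library, and at 0 and 0.14 CPM for Dusp5 and 0.802 and 1.12 CPM for Dusp8 in the untreated ones.

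**Figure D2:**
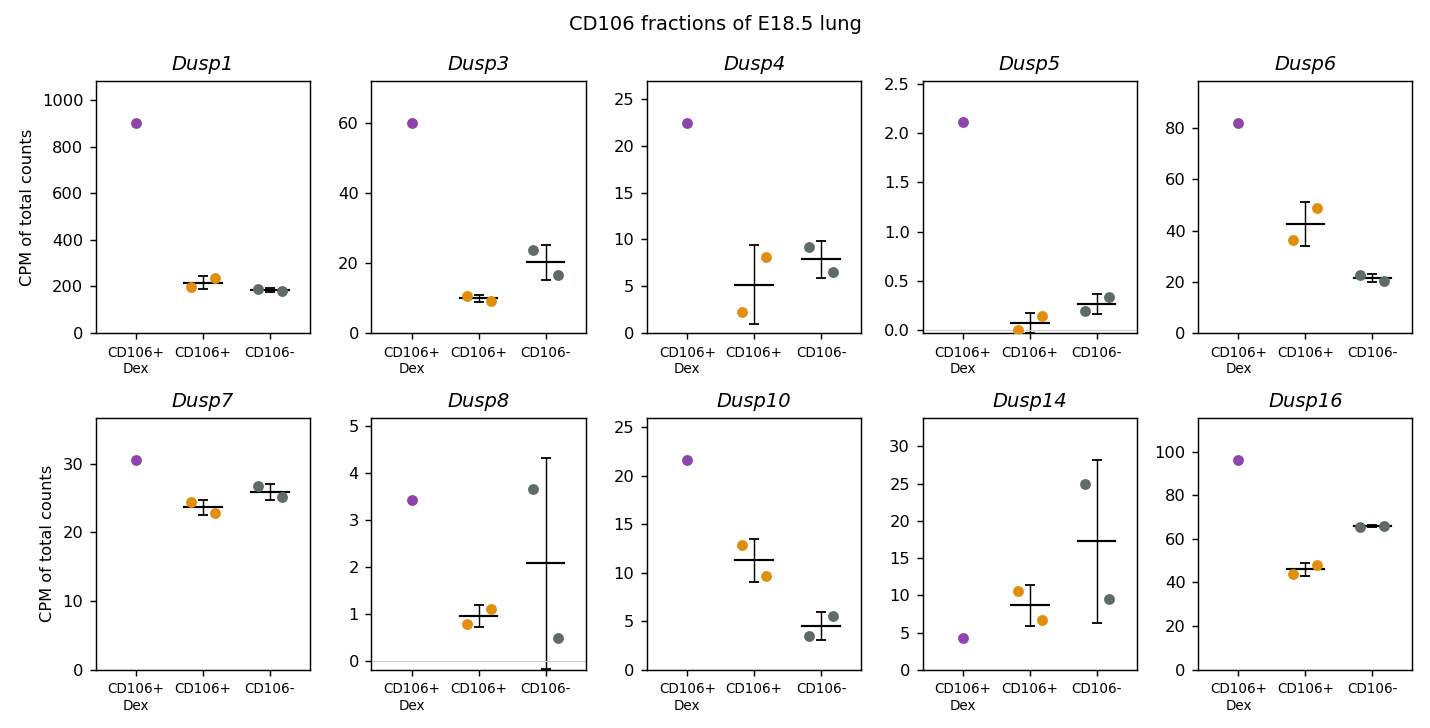
CPM of total counts (vertical axes, linear, each gene on its own scale) of the 10 phosphatase genes in 1 dexamethasone CD106+ library, 2 untreated CD106+ and 2 CD106- libraries. Points are libraries, long lines means and whiskers SD where there are 2 libraries, which fall below 0 for Dusp5 and Dusp8. The dexamethasone library stands above both untreated CD106+ libraries for every gene but Dusp14.

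The treated CD106+ group was 1 library, so its own spread is unknown. An edgeR fit that took the spread from both untreated fractions, and so assumed that the lone library varies as they do, put 5 of 9 genes past the threshold as higher and 0 as lower, where 7.38% of 13708 genes were higher and 6.05% lower. Since that assumption cannot be checked, these counts describe the libraries and are no test of treatment. The library also differed in cell makeup. Its 7 endothelial markers, none of them at 0, summed to 2288 CPM, against 90.7 and 118 CPM in the untreated CD106+ libraries, with Pecam1 at 508 CPM against 22.1 CPM or less and Kdr at 238 CPM against 11.8 and 12.9 CPM. Its leukocyte markers summed to 62.0 CPM against 3.81 and 7.43 CPM, and its epithelial markers to 1193 CPM against 2079 and 3775 CPM, while Vcam1 stood at 268 CPM against 551 and 687 CPM. The part of these cells in the phosphatase values was not tested.

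Other genes of the pathway in the same library are given as ratios of 2 or more with no test. Of 7 JNK and p38 scaffold and stress genes at 5 CPM or more, 4 were higher and 0 lower: Gadd45a, Gadd45b, Gadd45g and Zfp36, the last an RNA-destabilising factor. Of 21 ERK-induced transcription genes 9 were higher and 2 lower, the lower ones being Etv1 and Etv5, and of 8 other ERK feedback genes Spry4, Spred3 and Errfi1 were higher and 0 lower. MAP kinases had 3 higher and 1 lower of 11, MAP kinase kinases 0 of 7 in either direction, and MAP kinase kinase kinases 3 higher and 2 lower of 16. The Ras switch had 2 higher and 2 lower of 14, kinases downstream 1 and 1 of 10, and the other Dusp and slingshot genes 1 higher, Dusp2, and 3 lower of 11. Of 16 glucocorticoid target genes 14 were higher and 0 lower. Over all genes 13.0% were higher and 18.1% lower by the same measure. All these lists were chosen with earlier results of these data known.

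Between the untreated fractions, no phosphatase gene differed by the test, and Dusp6 came closest. Dusp6 stood at 36.5 and 48.8 CPM in the CD106+ fraction, against 22.7 and 20.5 CPM in the CD106- fraction, a log2 fold change of 0.93 (SE 0.35, adjusted p = 0.095). Dusp10 stood at 12.8 and 9.67 CPM in the CD106+ fraction, against 3.46 and 5.49 CPM in the CD106- fraction, a log2 fold change of 1.28 (SE 0.58, adjusted p = 0.21). Both were higher in each CD106+ library than in each CD106- library. In edgeR's test 0 of 8 genes passed, with 3 at an unadjusted p under 0.05 (Dusp6 at 0.012, Dusp3 at 0.028 and Dusp10 at 0.038), and 0 passed in DESeq2. Of 12364 genes tested 10.0% passed, 6.67% higher and 3.35% lower in CD106+ cells. Without CD106+ library 1, Dusp6 was called higher (log2 fold change 1.06, adjusted p = 0.017) and Dusp14 lower (log2 fold change -1.45, adjusted p = 0.035).

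Dusp3 and Dusp16, which encode an atypical enzyme and a stress kinase phosphatase, had lower values in both CD106+ libraries and did not pass the test. Dusp3 stood at 10.6 and 9.25 CPM in the CD106+ fraction, against 23.7 and 16.6 CPM in the CD106- fraction (log2 fold change -1.05, SE 0.45, adjusted p = 0.17). Dusp16 stood at 43.7 and 48.2 CPM in the CD106+ fraction, against 65.6 and 66.1 CPM in the CD106- fraction (log2 fold change -0.56, SE 0.29, adjusted p = 0.30). The fractions did not overlap for either gene. Dusp14 stood at 10.6 and 6.73 CPM in the CD106+ fraction, against 25.0 and 9.49 CPM in the CD106- fraction, with overlap (log2 fold change -1.01, SE 0.52, adjusted p = 0.30). Dusp4 overlapped too, at 2.21 and 8.13 CPM in the CD106+ fraction, against 9.23 and 6.49 CPM in the CD106- fraction (log2 fold change -0.65, SE 0.64, adjusted p = 0.68).

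Dusp1 and Dusp7 were nearly level between the fractions. Dusp1 stood at 198 and 236 CPM in the CD106+ fraction, against 189 and 179 CPM in the CD106- fraction (log2 fold change 0.19, SE 0.27, adjusted p = 0.80). Dusp7 stood at 24.5 and 22.8 CPM in the CD106+ fraction, against 26.7 and 25.1 CPM in the CD106- fraction (log2 fold change -0.17, SE 0.37, adjusted p = 0.88). In all, 3 of the 8 tested genes were higher in both CD106+ libraries and 3 were lower in both, where 25.7% and 22.1% of all genes were, 47.7% in all. The median log2 fold change of the 8 was -0.37, beside 0.05 for all genes. Dusp5 and Dusp8 were too low to test, at 0.802 and 1.12 CPM in the CD106+ fraction, against 3.65 and 0.499 CPM in the CD106- fraction for Dusp8.

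**Figure D3:**
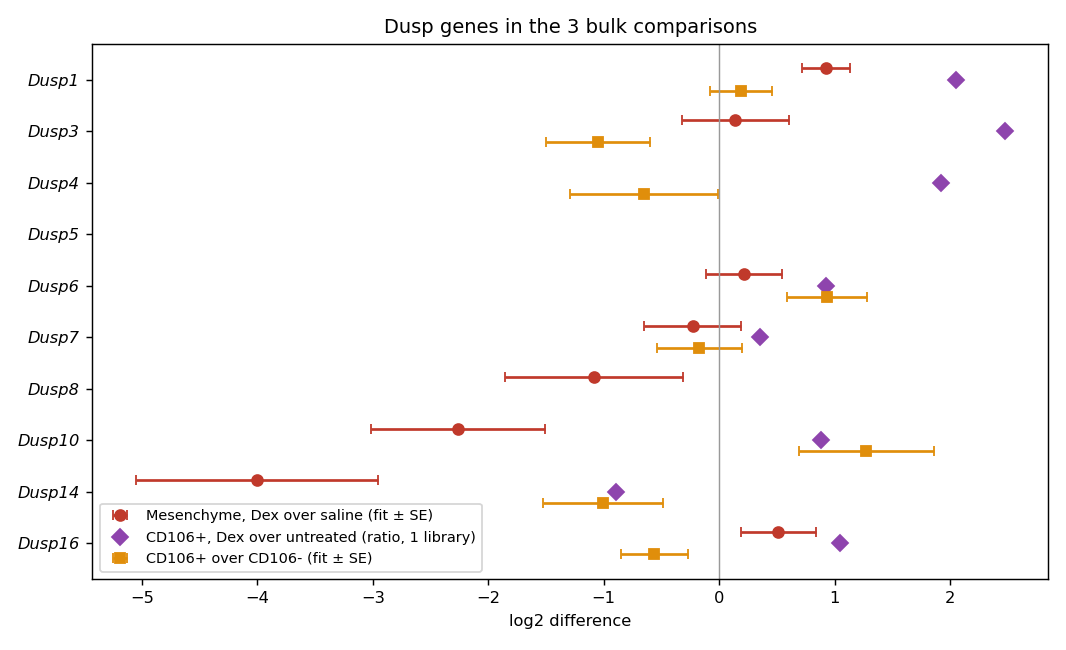
Log2 differences (horizontal axis) of the phosphatase genes that could be compared, in sorted mesenchyme (dexamethasone over saline, edgeR fit ± SE), in CD106+ cells (dexamethasone over untreated, ratio with a pseudocount of 1 CPM, 1 treated library) and between fractions (CD106+ over CD106-, edgeR fit ± SE). Dusp10 lies at -2.26 in mesenchyme and at 0.89 in treated CD106+ cells; the last pair of comparisons shares the untreated CD106+ libraries.

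Several other genes of the pathway differed between the fractions. Of 8 other ERK feedback genes 1 was higher in CD106+ cells, Spry4 (51.9 ± 17.2 CPM against 10.2 ± 4.64 CPM, SD, n = 2 each; log2 fold change 2.27, adjusted p = 0.00030), and 4 were lower, among them Errfi1, Spred3 and Spry2. Of 14 Ras switch genes 4 were higher, Rras2, Rasgrp3, Ksr1 and Rras, and 0 lower. Of 11 MAP kinase genes 2 were higher, Mapk11 (log2 fold change 3.50, adjusted p = 0.034), which encodes p38 beta, and Mapk7 (1.34, adjusted p = 0.036), which encodes ERK5. Of 20 ERK-induced transcription genes Etv1 was higher (log2 fold change 2.50, adjusted p = 3.4e-05) and Ccnd1, Egr2 and Etv5 were lower. Of 15 MAP kinase kinase kinase genes Map3k6 was higher and Map3k9 lower. Of 10 kinases downstream Mapkapk3 was lower, of 8 JNK and p38 scaffold and stress genes Atf3 was lower, and 0 of 7 MAP kinase kinase genes and 0 of 11 other Dusp and slingshot genes passed in either direction. Glucocorticoid target genes had 3 higher and 3 lower of 16.

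In the single cells, 24 hours after injection, Dusp1 was lower in the dexamethasone cells. It stood at 0 to 281 CPM per cell with a median of 3.26 CPM in the 15 dexamethasone cells, and at 4.32 to 4007 CPM with a median of 601 CPM in the 11 saline cells. The ranges overlapped, but 5 of 15 dexamethasone cells (33.3%, exact binomial 95% interval 11.8 to 61.6%) and 10 of 11 saline cells (90.9%, 58.7 to 99.8%) reached 10 CPM. Summed over cells, Dusp1 stood at 94.4 CPM with dexamethasone (exact Poisson 95% interval 89.2 to 99.8) and at 893 CPM with saline (877 to 908), a log2 ratio of -3.23. The intervals cover counting error only, and with 1 sample a group there is no test. Cells with any Dusp1 count numbered 12 of 15 with dexamethasone and 11 of 11 with saline, and, with every cell thinned to 200000 counts and none left out, 7 of 15 and 11 of 11. The dexamethasone cells were shallower, with a median total of 852850 counts and 3508 genes detected per cell. Saline cells had 1349765 counts and 5198 genes. Of 15 and 11 index codes, 1 occurred in both groups. The headings of all dexamethasone columns began with Bridges_Cell and those of all saline columns with Cell. What this prefix stands for is not given, and its part in the values cannot be told apart from that of treatment.

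**Figure D4:**
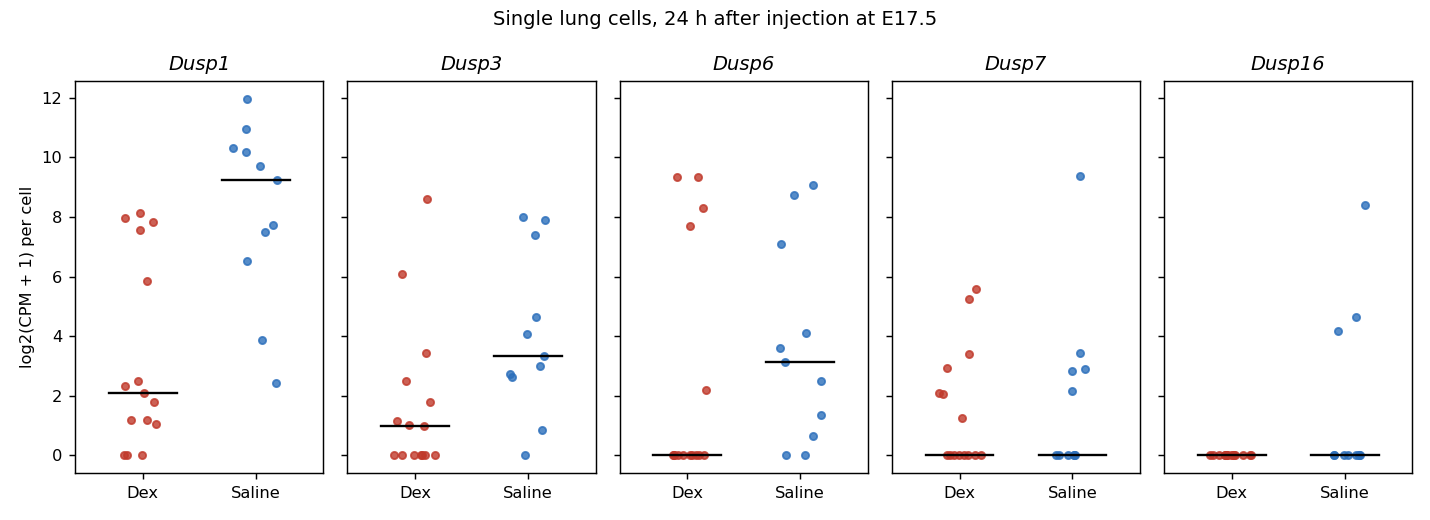
Log2 of CPM plus 1 (vertical axis) of the 5 phosphatase genes at 5 CPM or more, in 15 dexamethasone (Dex) and 11 saline single cells. Points are cells and lines medians. For Dusp1 the median cell held 3.26 CPM with dexamethasone and 601 CPM with saline, while Dusp16 was at 0 in all dexamethasone cells.

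Dusp6 and Dusp3 were patchy, high in a few cells of either group. Dusp6 ranged over 0 to 648 CPM (median 0) in dexamethasone cells and over 0 to 544 CPM (median 7.78) in saline cells, and summed to 149 CPM with dexamethasone (142 to 155) and 114 CPM with saline (109 to 120), a log2 ratio of 0.38. The 4 dexamethasone cells with 10 CPM or more held 206 to 648 CPM of Dusp6 and no more than 0.974 CPM of the endothelial gene Pecam1, while the 3 highest saline cells, at 544, 425 and 135 CPM, held 676, 1323 and 291 CPM of Pecam1. Dusp3 ranged over 0 to 384 CPM (median 0.974) in dexamethasone cells and over 0 to 253 CPM (median 9.07) in saline cells, and summed to 32.8 CPM with dexamethasone (29.8 to 36.1) and 68.5 CPM with saline (64.4 to 72.8), a log2 ratio of -1.04. Its 3 highest saline cells, at 253, 240 and 169 CPM, held 1323, 676 and 1099 CPM of Pecam1. The highest dexamethasone cell, at 384 CPM, held 0 CPM of Pecam1 and 304 of the 431 Dusp3 counts of its group.

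Dusp7 and Dusp16 came mostly from 1 saline cell each. Dusp7 ranged over 0 to 46.7 CPM in dexamethasone cells and over 0 to 666 CPM in saline cells, where the highest cell held 1099 CPM of Pecam1. It had a median of 0 in both groups and summed to 5.03 CPM with dexamethasone (3.89 to 6.40) and 54.4 CPM with saline (50.7 to 58.3), a log2 ratio of -3.20. Without the highest cell of each group the sums were 2.35 CPM with dexamethasone and 2.70 CPM with saline, a log2 ratio of -0.14. Dusp16 had 0 counts in all dexamethasone cells, which allows up to 0.229 CPM at 3 counts over the group. It had 338, 23.9 and 16.9 CPM in 3 saline cells, 37.9 CPM summed (34.8 to 41.1). The saline sum was 166-fold above the limit of 0.229 CPM, a ratio that leaves out the counting error of the saline sum and the spread between cells. Without the highest saline cell, which held 516 of the 562 counts, the saline sum was 3.45 CPM and the ratio to that limit 15.1-fold. Dusp5 and Dusp14 had 0 counts with dexamethasone and 2.83 and 2.09 CPM summed with saline, each from 1 cell. Dusp10 had 2 counts with dexamethasone and 0 with saline, and Dusp4 and Dusp8 had 0 counts in all 26 cells, which allows up to 0.229 CPM with dexamethasone and 0.202 CPM with saline.

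Of the 5 phosphatase genes with a summed level of 5 CPM or more in either group of cells, 4 were at a ratio of 0.5 or less with dexamethasone and 0 at 2 or more. Over 9694 genes, 37.7% were at least that much lower and 29.4% at least that much higher, so the groups of cells differed widely in general. The median log2 ratio of the 5 was -3.20, the same with Dusp16 set to 0.229 CPM with dexamethasone, beside -0.24 for all genes. Endothelial markers summed to a median of 4.18 CPM per cell with dexamethasone and 984 CPM with saline. Mesenchyme markers summed to a median of 21169 CPM with dexamethasone and 8523 CPM with saline. Without cells above 100 CPM of Pecam1, 14 dexamethasone and 6 saline cells were left. Dusp1 was then at a log2 ratio of -4.18, Dusp3 at 1.56, Dusp7 at 0.81 and Dusp6 at 4.73, so that Dusp3 and Dusp7 changed direction and 2 genes were at 0.5 or less. Of the saline cells left, the one highest in Dusp1, at 4007 CPM, held 460 CPM of the leukocyte gene Ptprc. The next, at 2004, 1162 and 830 CPM of Dusp1, held 9859, 6.23 and 21668 CPM of the smooth muscle gene Acta2. The part of cell type in the Dusp1 difference was not tested.

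In summed levels, early response genes did not all follow Dusp1 in the cells. Fos stood at 2518 CPM summed with dexamethasone (2491 to 2545) and 2459 CPM with saline (2434 to 2484). Dexamethasone cells 4 and 13, at 9063 and 8106 CPM, held the highest Fos of any cell. Egr1 stood at 1571 CPM with dexamethasone (1549 to 1592) and 2788 CPM with saline (2761 to 2815), and Zfp36 at 175 CPM with dexamethasone (168 to 182) and 508 CPM with saline (497 to 520). The median cell was lower with dexamethasone for each of these genes. It held 512 CPM of Fos with dexamethasone and 2341 CPM with saline. For Egr1 these medians were 153 and 2492 CPM, and for Zfp36 2.58 and 27.3 CPM. Of 18 ERK-induced transcription genes 2 were at a ratio of 2 or more and 8 at 0.5 or less, and of 14 glucocorticoid target genes 3 and 6. Fkbp5 stood at 53.6 CPM with dexamethasone (49.8 to 57.8) and 139 CPM with saline (133 to 145). Each of these sums came mostly from 1 cell, dexamethasone cell 2 at 612 CPM and saline cell 10 at 1064 CPM. The next highest cells held 120 CPM with dexamethasone and 166 CPM with saline.

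Over the bulk libraries, Dusp1 was highest in dexamethasone CD106+ cells (901 CPM), followed by dexamethasone mesenchyme (535 to 613 CPM), saline mesenchyme (295 and 319 CPM), CD106+ cells (198 and 236 CPM) and CD106- cells (179 and 189 CPM). Neighbouring groups in this order did not overlap, but the last neighbours did not pass the test, and order across the sets, which came from different sorts, was not tested. Likeness to Dusp1 was measured as the root mean square difference of centred log2(CPM + 1) values over these 11 libraries, among 6681 genes. The nearest genes were Ehd4, which acts in endocytic recycling, at 0.18, Dnajb9, a chaperone of the endoplasmic reticulum, at 0.26, and Dact1, a Wnt pathway regulator, at 0.27, beside a median of 1.01 over genes. Ehd4 stood at 91.4, 101, 82.0 and 91.6 CPM in dexamethasone mesenchyme and at 53.9 and 60.9 CPM in saline mesenchyme. It stood at 145 CPM in dexamethasone CD106+ cells, 37.7 and 30.6 CPM in CD106+ cells and 30.0 and 33.8 CPM in CD106- cells. Of the 3, Dact1 passed the mesenchyme test (log2 fold change 1.09, adjusted p = 0.039), and Ehd4 (0.74, adjusted p = 0.18) and Dnajb9 (0.61, adjusted p = 0.45) did not.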

How the data were processed

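The data are RNA counts of 11 bulk libraries and 26 cells; 4 chromatin accessibility samples were not analysed here. The authors deposited 4 tables of expected counts by symbol, a unit read from the values: 5.35 to 9.21% of the entries of a bulk column had decimals. Of the 10 genes, Dusp16 alone had fractional values, in 3 of 37 columns. Per the submitters' processing notes the build was mm10, and Trim Galore, Bowtie2, TopHat2, Partek, MACS2 and HOMER were named. How reads were assigned to genes, and whether by strand, is not given in the sources used here, so reads of overlapping or antisense genes may be included. The code heading the column of treated CD106+ cells is found in no label, and the column was assigned because only that sample's description names the table. The labels' protocols describe depletion of CD45, CD31 and CD309 before CD106 selection for the accessibility samples, and do not say how the RNA fractions were selected.

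Expected counts were rounded. Genes were kept by filterByExpr, scaled by TMM and compared by edgeR 4.0.16's quasi-likelihood test (R 4.3.3) with robust estimation and Benjamini-Hochberg adjustment over all genes at 0.05. Alternatives were DESeq2 1.42.0, other scalings, no filter, Rn45s removed, covariates, a replicate block and each library left out. The edgeR step was tested on simulated counts. No replicates agreed within sampling noise (chi-square per degree of freedom 9.15 to 37.9). CPM, ratios and summed levels were computed from the deposited counts. Comparisons without replicates used genes at 5 CPM or more in either group and a pseudocount of 1 CPM. No doublet caller was run on 26 cells and no clusters were made. Positions and promoters are RefSeq's for GRCm38.p6, and gene lengths were not used. The 10 genes and all lists were chosen with earlier results of these data known. All 10 genes are named, with up to 4 genes per pathway list by smallest p, marker checks and the 3 genes most like Dusp1. Kdr, and the genes named from lists in comparisons without a test, lie outside that rule, their values having been seen first.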

Additional observations from a re-analysis of the deposited data

Results flagged for a closer look

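Dusp1 in dexamethasone pool 1, at 613 CPM, lay far above the other 3 dexamethasone pools, which held 535, 542 and 543 CPM. Of 10 sets of 4 pools looked at in this way, 1 for each gene, it was the one past Dixon's 95% limit, which chance passes in about 1 set of 20. Without that pool the log2 fold change of Dusp1 was 0.88 (adjusted p = 0.055 by edgeR).

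Dusp10 was lower in all 4 dexamethasone pools of mesenchyme than in both saline pools, and higher in the 1 dexamethasone CD106+ library than in both untreated ones (log2 ratio 0.89). In mesenchyme Dusp10 did not pass the test (log2 fold change -2.26, adjusted p = 0.14 by edgeR). Dusp8 had the same pattern, but at 3.43 CPM in the dexamethasone CD106+ library against 0.802 and 1.12 CPM, under the 5 CPM minimum used here. The difference between the sets was not tested, and the time of treatment is given for mesenchyme only.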

How the results depend on the processing

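Of the 11356 genes tested in mesenchyme, 306 were called, against 504 by DESeq2, 598 with no filter, 154 with the replicate block, 186 with the Xist covariate, 32 with the chondrocyte covariate and 179 to 335 with 1 pool left out. The count of phosphatase genes called higher there was 0 with the replicate block (Dusp1 adjusted p = 0.0999), the Xist covariate or the chondrocyte covariate, and 0 to 1 with 1 pool left out. The count called lower was 1 by DESeq2, 2 with no filter, 1 with the Xist covariate and 0 to 2 with 1 pool left out. Neither Xist nor the chondrocyte sum overlapped between the groups, so fits with these covariates could hardly separate them from treatment. The labels do not say that replicate numbers pair the samples, and deviations of same-numbered samples correlated at -0.06 and 0.16 in mesenchyme and 0.05 between fractions. The block gave 1276 calls between fractions and changed no phosphatase call there. Between fractions 1239 genes were called, against 546 to 2756 with 1 library left out, with 0 to 1 phosphatase genes higher and 0 to 1 lower. Directions turned in mesenchyme for Dusp3 (-0.14 without saline pool 2, with 0.50 without saline pool 1), Dusp6 (-0.034 without saline pool 1, with 0.57 without saline pool 2, and -0.52 with the chondrocyte covariate), Dusp7 (0.15 without saline pool 1) and Dusp10 (0.33 with the chondrocyte covariate); the cause was not tested. In cells without Pecam1 above 100 CPM they turned for Dusp3 (1.56) and Dusp7 (0.81), and 2 genes were at a ratio of 0.5 or less; 3 were without the highest cell of each group, a setting added once the values had been seen. In the treated CD106+ library 4 to 5 genes were at a ratio of 2 or more with 1 untreated library left out, 6 with TMM-scaled library sizes (Dusp6 at 1.08 and Dusp10 at 1.01 on the log2 scale) and 3 with a pseudocount of 5 CPM. Dusp4, Dusp5, Dusp8 and Dusp14 rest on few counts, and differences in them may be missed at this depth. Levels per transcript length and a protein comparison were not run.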
